A study of Mus musculus with 8 samples.

Results

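Short CpG-rich clusters at the unmethylated end of the scale were examined in mouse liver. HELP-tagging reads methylation at CCGG sequences by setting short tags from cuts of HpaII, which needs an unmethylated CpG, beside tags from cuts of MspI, which ignores CpG methylation. Each CCGG site has an m-score, the angle between both tag numbers rescaled to run from 0 (no HpaII tag, methylated) to 100 (unmethylated), and a score of 75 stands for 2.41 HpaII tags per scaled MspI tag. Autosomal sites listed in all 8 livers with at least 10 MspI tags were joined where neighbours lay at most 500 bp apart. Clusters of 5 to 19 sites whose m-score averaged 75 or above over sites and livers were taken. There were 4510 of them, which is 21.8% of the 20674 autosomal clusters of 5 or more sites and 23.0% of the 19624 clusters of 5 to 19 sites. They held 42978 sites, or 4.77% of the 901242 autosomal sites with enough MspI tags, over 4099.64 kb in all. The clusters were chosen by their mean m-score over all 8 livers, so their level is a description and was not tested.

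The livers came from C57BL/6J mice given a high-fat diet with lingonberries (n = 4) or the high-fat diet alone (HFD, n = 4). All 8 mice thus had the high-fat diet, and no liver from another diet was analysed here. The labels give neither age nor sex. Bulk liver DNA was measured, so a change within a cell type and a change in the cell types present cannot be told apart, and no marker of liver identity was measured. The recovered HpaII tags numbered 6121989 to 16076961 per lingonberry library and 5877080 to 7428108 per HFD library. The MspI tags were scaled to the HpaII total of each liver, so a score compares a site with the rest of its own library.

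Most CpGs of the mouse genome are methylated, and short CpG-dense stretches, many of them at gene starts, escape methylation. Such CpG islands lie at the promoters of housekeeping genes and of many developmental regulators. CpG-binding proteins and trimethylated lysine 4 of histone H3 are known from other work to keep DNA methyltransferases away from them.

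Gene context came from matching the spacing of CCGG in RefSeq promoter windows (GRCm38.p6) to the sites of the files (mm9), with no conversion of coordinates. Promoters of 6 clusters are shown, drawn from the cholesterol, insulin signalling, patterning and ribosomal gene lists used here, to let the CpG content behind the scores be seen. Each runs for 250 bases up to the RefSeq gene start, on the strand of the gene, with capitals on the CCGG sites listed in the files. Insig2 lies at chr1:121327679-121327928 (minus strand), Hsd17b7 at chr1:169969206-169969455 (minus), Rps6kb1 at chr11:86544808-86545057 (minus), Rps7 at chr12:28635954-28636203 (minus), Prkaa1 at chr15:5143611-5143860 (plus) and Olig2 at chr16:91225300-91225549 (plus), all in GRCm38.p6.
Insig2: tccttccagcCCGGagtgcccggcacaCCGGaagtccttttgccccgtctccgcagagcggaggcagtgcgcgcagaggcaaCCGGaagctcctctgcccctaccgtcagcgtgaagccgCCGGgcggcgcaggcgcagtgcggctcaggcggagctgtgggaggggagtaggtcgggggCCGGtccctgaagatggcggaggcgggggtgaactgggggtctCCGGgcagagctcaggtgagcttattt
Hsd17b7: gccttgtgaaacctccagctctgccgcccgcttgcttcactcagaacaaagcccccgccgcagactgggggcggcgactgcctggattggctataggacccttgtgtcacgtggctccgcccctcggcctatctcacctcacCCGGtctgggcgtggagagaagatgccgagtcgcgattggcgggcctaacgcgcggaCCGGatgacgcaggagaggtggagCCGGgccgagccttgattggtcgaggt
Rps6kb1: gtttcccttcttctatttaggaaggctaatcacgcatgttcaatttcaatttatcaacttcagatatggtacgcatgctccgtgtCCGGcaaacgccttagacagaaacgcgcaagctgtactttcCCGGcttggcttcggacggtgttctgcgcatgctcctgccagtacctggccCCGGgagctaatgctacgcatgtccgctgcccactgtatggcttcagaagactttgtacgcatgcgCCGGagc
Rps7: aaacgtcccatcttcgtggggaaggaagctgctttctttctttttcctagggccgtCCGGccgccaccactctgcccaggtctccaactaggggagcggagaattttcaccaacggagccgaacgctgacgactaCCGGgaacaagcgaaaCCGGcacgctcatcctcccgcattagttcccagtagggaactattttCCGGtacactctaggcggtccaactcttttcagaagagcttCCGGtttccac
Prkaa1: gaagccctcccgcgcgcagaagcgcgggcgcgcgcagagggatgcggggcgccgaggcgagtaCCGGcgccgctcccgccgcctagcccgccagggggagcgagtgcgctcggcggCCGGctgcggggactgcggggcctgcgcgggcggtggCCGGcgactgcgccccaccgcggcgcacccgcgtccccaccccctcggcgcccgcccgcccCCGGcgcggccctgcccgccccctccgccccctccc
Olig2: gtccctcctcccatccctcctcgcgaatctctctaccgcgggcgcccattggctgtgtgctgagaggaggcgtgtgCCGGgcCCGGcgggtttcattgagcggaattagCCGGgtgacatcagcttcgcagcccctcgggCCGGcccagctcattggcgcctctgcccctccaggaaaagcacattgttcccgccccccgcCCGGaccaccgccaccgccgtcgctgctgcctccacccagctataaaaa

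These stretches were searched on both strands for the Sp1 core (GGGCGG), the CCAAT box, the TATA box (TATAAA), the ETS core (CCGGAAG), the CRE palindrome (TGACGTCA) and the E-box (CACGTG). The Insig2 promoter holds 2 copies of CCGGAAG, the core bound by ETS factors, and in both the listed CCGG is part of the motif. Insig2 also holds 1 GGGCGG. The Prkaa1 stretch holds 5 copies of GGGCGG, the core of the Sp1 motif, and none of the other motifs searched. The Hsd17b7 stretch holds 3 copies of GGGCGG, 3 of CCAAT and 1 of CACGTG, the E-box core. Olig2 is the only stretch of the 6 with TATAAA, which it holds once, beside 2 copies of GGGCGG and 2 of CCAAT. Rps7 holds 1 CCGGAAG, and Rps6kb1 none of the motifs searched.

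Some neighbouring sites within these promoters differed, and pairs with a wide gap were picked from Rps7 and Prkaa1 as examples. In Rps7 the site 52 bases before the start scored 55.1 ± 6.23 with lingonberries and 53.0 ± 10.3 in HFD, while the site 99 bases before the start scored 88.5 ± 1.91 with lingonberries and 86.3 ± 3.90 in HFD (SD, n = 4 each). In Prkaa1 the site 97 bases before the start scored 58.4 ± 7.78 with lingonberries and 55.5 ± 12.4 in HFD. Its neighbour 36 bases before the start scored 87.3 ± 2.45 with lingonberries and 86.3 ± 4.24 in HFD. The order of these sites was therefore alike in both diets, and the gap between neighbours was larger than the spread between livers.

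A cluster had a median of 9 sites (quartiles 6 and 12) and a median length of 839 bp (quartiles 586 and 1163, range 123 to 2865). Consecutive sites lay a median of 76 bp apart. The gap was 92 bp in clusters of 5 to 19 sites with a mean of 25 to below 75 (called intermediate here, 10393 clusters, median 7 sites). It was 154 bp in those below 25 (called methylated, 4721 clusters, median 5 sites). Long clusters of 20 or more sites at 75 or above (429) had a median gap of 65 bp. The share of clusters that reached 75 was 13.4% of the 8857 with 5 to 6 sites, 27.4% of the 5159 with 7 to 9 and 34.0% of the 5608 with 10 to 19.

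The threshold falls inside a peak of the distribution and does not separate a population. There were 946 clusters from 75 to below 76 and 971 from 74 to below 75. The clusters just inside, with means of 75.0004, 75.0012 and 75.0017, were chr11:77306743-77307702 (mm9, 15 sites, at the Git1 promoter), chr1:136311843-136312451 (10 sites) and chr2:164793460-164794344 (12 sites). Those just outside had means of 74.9996, 74.9980 and 74.9965, at chr19:45217861-45218374, chr4:62875921-62877931 and chr14:79790036-79790911. The median member stood at 77.6 (quartiles 76.2 and 79.4), and only 40 clusters reached 85. The highest, chr17:9957599-9958259 (5 sites), scored 88.7 ± 0.459 with lingonberries and 88.8 ± 1.66 in HFD.

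**Figure D1:**
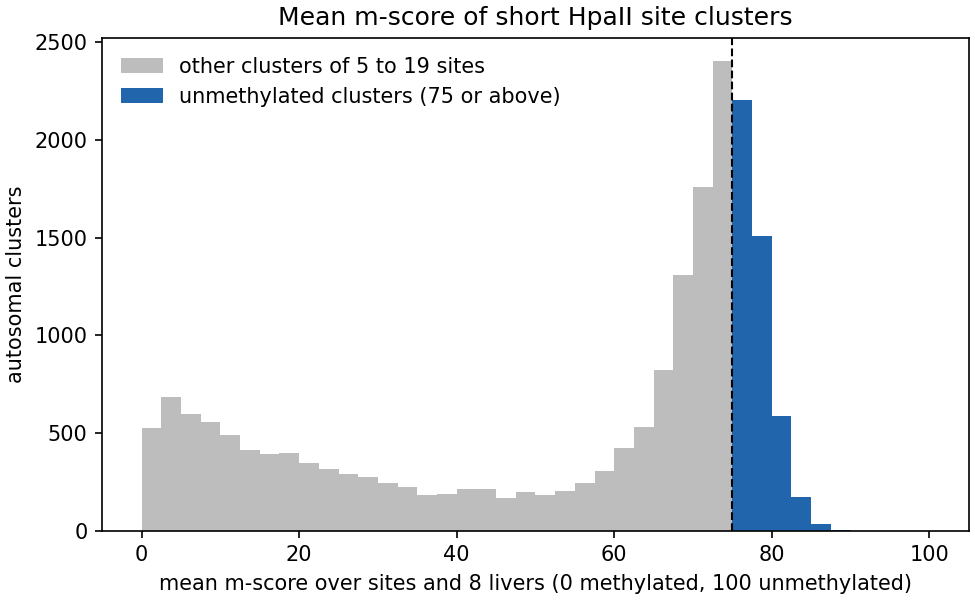
Number of autosomal clusters of 5 to 19 sites by mean m-score over their sites and 8 livers, with the clusters at 75 or above in blue and the others in grey. The line at 75 stands within the upper peak, with 946 clusters in the unit above it and 971 in the unit below it.

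The label unmethylated holds for the average of a cluster and for most, not all, of its sites. Of the member sites, 29150 (67.8%) averaged 75 or above, 13802 (32.1%) lay from 25 to below 75 and 26 (0.0605%) lay below 25. Only 168 clusters (3.73%) had every site at 75 or above, and 582 (12.9%) had a site below 50. The lowest site of a cluster stood at a median of 62.0 and the highest at 89.5. The range between the sites of a cluster was 27.6 at the median. It was 48.1 in the intermediate, 40.6 in the long unmethylated and 22.1 in the methylated clusters. A mean near either end of the scale limits this range, so it follows in part from the choice. The range is also taken over unlike numbers of sites. Their median was 9 in members, 7 in intermediate, 23 in long unmethylated and 5 in methylated clusters. The part of cluster size in the range was not tested. The widest range was at chr4:129262165-129263295 (8 sites), where the sites ran from 3.93 to 91.3 while the cluster averaged 76.5 ± 0.806 with lingonberries and 76.7 ± 1.56 in HFD (SD, n = 4 each).

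Methylation outside the clusters was read from autosomal sites with at least 10 MspI tags that lay in no member. Sites of neighbouring clusters that met the rule were thereby left out, so the step down follows in part from the choice. Sites more than 500 and up to 1000 bp away (4096) averaged 51.5 ± 1.35 with lingonberries and 52.2 ± 0.416 in HFD, and sites up to 2000 bp away (6718) averaged 41.1 ± 1.02 with lingonberries and 41.6 ± 0.456 in HFD. From there to 5000 bp (17377 sites) the means were 35.8 ± 0.963 with lingonberries and 36.5 ± 0.414 in HFD. Beyond 10000 bp (803840 sites) they were 25.4 ± 0.387 with lingonberries and 26.99 ± 0.717 in HFD. The score thus stepped down with distance on both diets, and beyond 10000 bp no lingonberry liver reached the lowest HFD liver (24.9 to 25.8 with lingonberries against 26.4 to 27.9 in HFD).

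**Figure D2:**
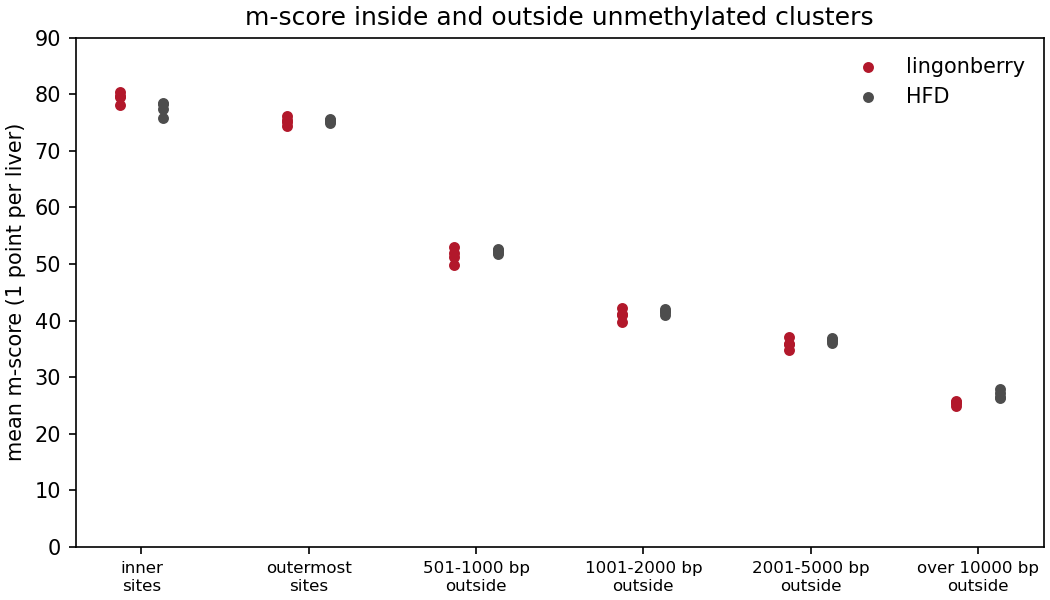
Mean m-score of sites by position, with 1 point per liver, lingonberry left of HFD. Inner sites of the clusters stand at 79.5 (lingonberry) and 77.5 (HFD), the outermost sites at 75.3 (lingonberry) and 75.4 (HFD), and the sites beyond 10000 bp at 25.4 (lingonberry) and 26.99 (HFD).

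The comparison of diets asks whether the berry supplement went with another methylation of these clusters in liver. Over all member sites the mean m-score was 78.8, 78.5, 77.5 and 79.6 in the lingonberry livers and 77.9, 77.0, 75.6 and 77.6 in the HFD livers. The groups overlapped, since lingonberry liver 3 lay below HFD livers 1 and 4. The group means were 78.6 ± 0.851 with lingonberries and 77.0 ± 1.03 in HFD (SD, n = 4 each), a difference of 1.56 that missed the threshold of 0.05 (two-sided exact permutation test, p = 0.0857, where the smallest possible p is 0.0286). Depth moved with the score, since the 3 deepest libraries were lingonberry livers 1, 2 and 4, the 3 with the highest scores. With all libraries thinned to 5877080 tags the lingonberry livers spanned 77.4 to 79.1 and the HFD livers 75.6 to 77.7, a difference of 1.32 (exact permutation p = 0.0571).

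The clusters took a larger share of all HpaII tags in the lingonberry livers. The share was 18.5%, 18.8%, 17.5% and 18.6% in the lingonberry livers and 17.5%, 16.7%, 15.7% and 17.3% in the HFD livers. The groups did not overlap, but lingonberry liver 3 (17.51%) and HFD liver 1 (17.48%) all but met. The means were 18.3 ± 0.560% with lingonberries and 16.8 ± 0.808% in HFD, a difference of 1.52 percentage points (two-sided exact permutation test, p = 0.0286, the smallest that 4 against 4 allows). The exact (Clopper-Pearson) 95% interval of a share extended 0.0190 to 0.0301 points to either side, far less than the spread between livers. The exact permutation p was 0.0571 when any 1 library other than lingonberry liver 3 was left out (difference 1.16 to 1.75 points), and also when the 1000 sites with most tags were taken out of the total (1.54 points).

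The share of sites at 75 or above was 72.0%, 71.0%, 68.2% and 74.8% in the lingonberry livers and 68.9%, 66.1%, 61.8% and 68.0% in the HFD livers. Lingonberry liver 3 lay just under HFD liver 1, and the other 3 lingonberry livers lay above all HFD livers. The means were 71.5 ± 2.73% with lingonberries and 66.2 ± 3.15% in HFD (exact permutation p = 0.0571, adjusted p = 0.0857 over 3 classes). Without lingonberry liver 3 the difference passed the threshold (6.45 points, adjusted exact permutation p = 0.0429). Leaving out any other liver gave 3.89 to 6.24 points and an adjusted exact permutation p of 0.0857 to 0.171. Sites from 25 to below 75 made up 28.1 ± 2.59% with lingonberries and 33.4 ± 3.03% in HFD (adjusted exact permutation p = 0.0857). Sites below 25 were few, with 0.329 ± 0.147% with lingonberries and 0.451 ± 0.117% in HFD (adjusted exact permutation p = 0.286). Member sites with no HpaII tag at all made up 0.0494 ± 0.0545% with lingonberries and 0.0907 ± 0.0398% in HFD (exact permutation p = 0.286).

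**Figure D3:**
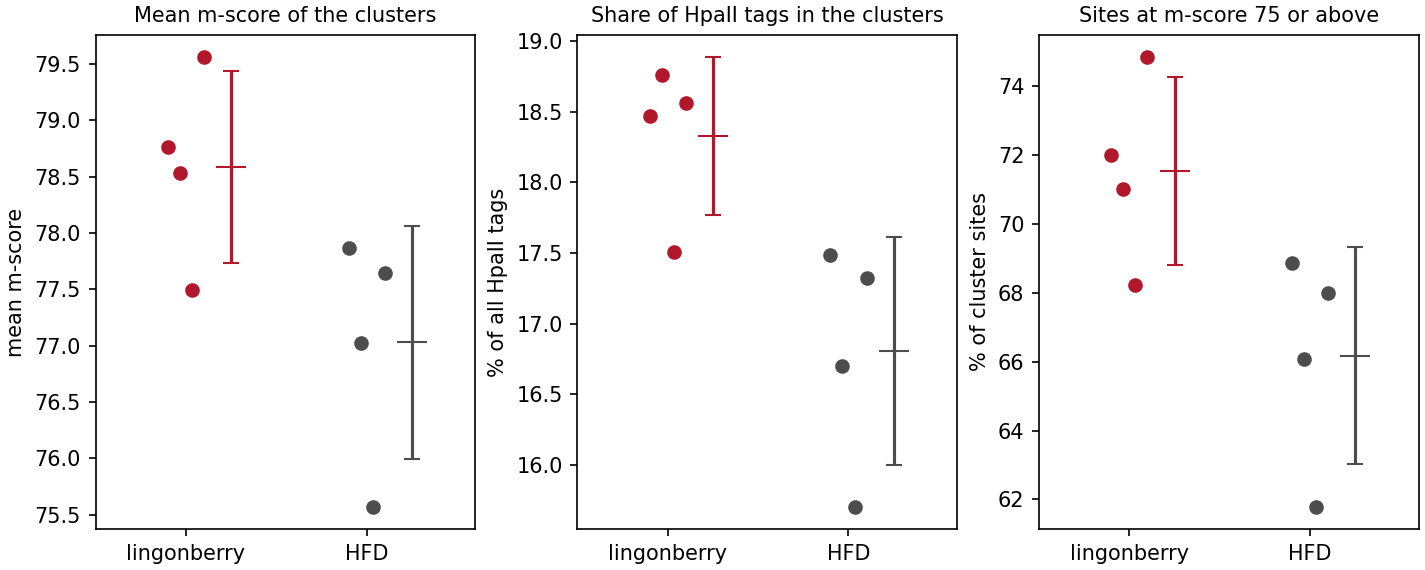
Values of the clusters per liver, lingonberry left of HFD, with the mean and SD of each group. The lingonberry livers take 17.51% to 18.8% of all HpaII tags and the HFD livers 15.7% to 17.48%, while the mean m-scores of both groups overlap.

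The difference between diets was not shown to be particular to these clusters. Their mean stood above that of the intermediate clusters by 13.9 ± 0.414 with lingonberries and by 13.6 ± 0.388 in HFD, which differed by 0.277 (exact permutation p = 0.314). This contrast was 0.0799 without lingonberry liver 2, and its sign turned at an MspI minimum of 20 tags, a gap of 300 bp and a threshold of 85 (-0.0796, -0.173 and -0.511). They stood above the long unmethylated clusters by 0.676 ± 0.331 with lingonberries and by 1.07 ± 0.326 in HFD (difference -0.396, exact permutation p = 0.171, and -0.490 to -0.246 with 1 liver left out). Among the members, those of 10 to 19 sites averaged 78.3 ± 0.925 with lingonberries and 76.5 ± 1.18 in HFD, a difference of 1.78. Those of 7 to 9 sites averaged 78.8 ± 0.783 with lingonberries and 77.4 ± 0.944 in HFD, a difference of 1.39. Those of 5 to 6 sites averaged 79.3 ± 0.792 with lingonberries and 78.3 ± 0.620 in HFD, a difference of 0.991. None of the 3 size classes passed (adjusted exact permutation p = 0.129, 0.129 and 0.143 for 10 to 19, 7 to 9 and 5 to 6 sites).

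Inner and outermost sites of the clusters differed in their diet contrast, in a comparison added after the data were seen. The outermost sites (9020, the first and the last of each cluster) averaged 75.3 ± 0.732 with lingonberries and 75.4 ± 0.298 in HFD, a difference of -0.0584. The 33958 inner sites averaged 79.5 ± 0.959 with lingonberries and 77.5 ± 1.26 in HFD, a difference of 1.99. Outermost minus inner was -4.07, -5.15, -3.13 and -4.28 in the lingonberry livers and -2.95, -1.74, -0.722 and -3.06 in the HFD livers. All 4 lingonberry livers had the deeper step, and the closest pair was lingonberry liver 3 and HFD liver 4. The step differed by -2.04 between diets (two-sided exact permutation test, p = 0.0286, the smallest possible), and leaving out any 1 library other than lingonberry liver 3 gave an exact permutation p of 0.0571 to 0.114. With the tags thinned to the smallest library the steps were -4.18, -5.29, -3.16 and -4.62 with lingonberries and -3.00, -1.78, -0.722 and -3.13 in HFD, again without overlap.

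The distance to the nearest other site of the cluster gave a graded picture. Sites with a neighbour within 30 bp (9586) averaged 78.0 ± 1.22 with lingonberries and 75.7 ± 1.57 in HFD, a difference of 2.32. At 31 to 60 bp (14879 sites) the difference was 2.19, at 61 to 120 bp (11287) it was 1.40, and from there to 250 bp (5536) it was 0.0538. Beyond 250 bp (1690 sites, 82.1% of them outermost) the means were 68.6 ± 1.67 with lingonberries and 70.9 ± 1.34 in HFD, a difference of -2.32. These classes pool sites over all members, and beyond 250 bp the groups overlapped, since lingonberry liver 4 (70.5) lay above HFD livers 1 and 4; the difference of that class alone was not tested. The mean of sites with a neighbour within 30 bp minus that of sites with none within 250 bp was 9.56, 11.99, 7.33 and 8.75 in the lingonberry livers and 6.93, 3.48, 1.57 and 7.11 in the HFD livers. It differed by 4.63 between diets (exact permutation p = 0.0286), in a comparison also added after the data were seen. The exact permutation p was 0.0571 to 0.114 without any 1 of lingonberry livers 1 to 4 or HFD livers 2 and 3 (difference 3.57 to 5.32). Local site density and the outermost position go together here, and their parts in the difference were not tested separately. Both contrasts come from the same 8 livers as the diet comparison of all clusters and are no separate evidence.

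Cluster by cluster, no member differed between diets at an adjusted p below 0.05. A limma fit over all 21020 clusters of 5 or more sites called 0 of the 4510 members, against 0% of all clusters, with a smallest adjusted p of 0.602 among members. At an unadjusted p below 0.05, limma gave 449 members higher with lingonberries (9.96%, against 6.36% of all clusters) and 19 lower (0.421%, against 1.86%). The difference was above 0 in 3592 members (79.6%, against 65.9% of all clusters), with a median of 1.49 in members and 1.02 in all. Among the 14590 clusters with a mean of at least 10 HpaII tags per site, which include all members, the median was 1.54. The members' median thus lay just under that of clusters with enough tags. Of these 14590 clusters, 11129 had a difference above 0 and limma gave 1210 higher at an unadjusted p below 0.05. On both counts the members' share lay nearer to that of clusters with enough tags than to that of all clusters. On HpaII tags per 1000000, limma also called 0 members (0% of all clusters), with 765 higher at an unadjusted p below 0.05 (17.0%, against 11.3% of all) and 2 lower (0.0443%, against 1.49%). The tag difference was above 0 in 3958 members (87.8%, against 71.2% of all). The median log2 difference was 0.12 in members and 0.09 in all clusters.

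The split of the tags turned on the scaling. With each liver's total taken over the sites of clusters of 5 or more sites, the median log2 difference of all clusters was -0.02 and that of members 0.0033, and the unadjusted limma counts were 69 members higher and 72 lower. Of all 21020 clusters, limma then gave 293 higher and 756 lower at an unadjusted p below 0.05. The difference was above 0 in 2327 of the 4510 members and in 9276 of all clusters. Tags are given as a share of a total, so the direction in the members holds against all listed sites and not against clusters alone.

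**Figure D4:**
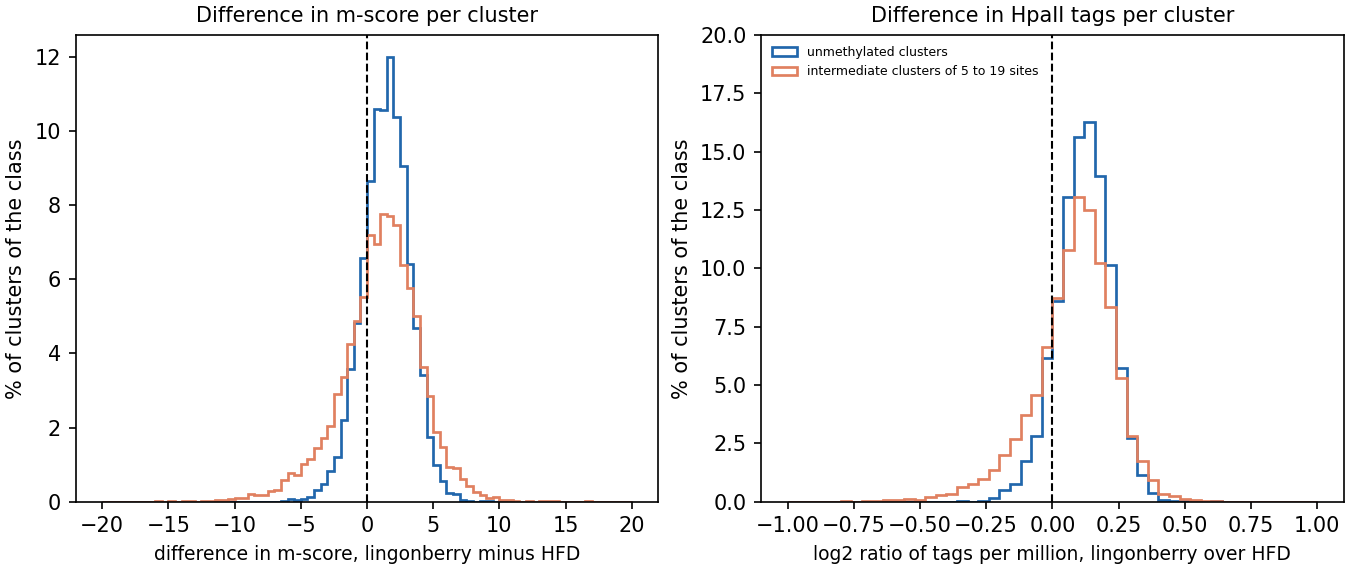
Distribution over clusters of the difference in m-score (left) and of the log2 ratio of HpaII tags per 1000000 (right), lingonberry against HFD, for the unmethylated clusters and the intermediate clusters of the same size. The bulk of the unmethylated clusters lies right of 0, with medians of 1.49 in m-score and 0.12 in log2 tags, and no cluster passed an adjusted p of 0.05.

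The clusters with the smallest p in each direction show how large the shifts were. At chr10:109892724-109893106 (8 sites) the m-score was 79.6, 79.2, 81.96 and 80.8 in the lingonberry livers and 76.7, 68.3, 70.7 and 69.7 in the HFD livers. No HFD liver reached the lowest lingonberry liver, and the limma difference was 9.05 ± 1.85 (SE), with an adjusted p of 0.602. At chr2:128512698-128513428 (9 sites) it was 78.7, 79.8, 78.98 and 81.3 in the lingonberry livers and 72.1, 73.99, 73.3 and 73.2 in the HFD livers. The groups stood apart there too, by 6.55 ± 1.37 (SE; limma adjusted p = 0.602). The other 3 in this direction were chr11:118940137-118941000, chr1:78192926-78194509 and chr4:136417906-136418157, with limma differences of 7.36, 7.19 and 5.65 and an adjusted p of 0.602 each.

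In the other direction, chr4:25726505-25727629 (9 sites) had 72.6, 73.8, 71.9 and 76.2 in the lingonberry livers and 77.8, 79.5, 77.3 and 77.7 in the HFD livers. Every lingonberry liver was below every HFD liver, with a limma difference of -4.44 ± 1.49 (SE; adjusted p = 0.602). The cluster chr7:4461539-4462179 (5 sites) had 74.8, 75.5, 72.5 and 70.6 in the lingonberry livers and 76.5, 80.6, 79.3 and 76.7 in the HFD livers, likewise without overlap, and a limma difference of -4.92 ± 1.65 (SE; adjusted p = 0.602). The remaining 3, at chr15:32850712-32851103, chr19:34364957-34366186 and chr17:95233860-95234496, differed by -5.51, -5.67 and -5.10 (limma, adjusted p = 0.602 each). None of these 10 clusters had a matched promoter.

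Other extremes of the set did not pass in the diet comparison either. The cluster with the most sites listed first by position, chr1:6204393-6205356 (19 sites in 964 bp), averaged 78.4 ± 1.45 with lingonberries and 74.98 ± 1.22 in HFD (limma adjusted p = 0.602). The longest, chr11:114528417-114531281 (2865 bp), averaged 79.1 ± 2.20 with lingonberries and 78.3 ± 1.57 in HFD (limma adjusted p = 0.892). The one with the most HpaII tags, chr8:19892577-19893037 (237.2 tags per site), averaged 80.1 ± 3.16 with lingonberries and 77.4 ± 1.50 in HFD (limma adjusted p = 0.668). Its tag sums included fractional values (2432.25 in lingonberry liver 1 and 709.17 in HFD liver 3). Whether its tags were shared with other places was not tested.

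Gene starts were found in 999 clusters (22.2%), against 14.5% of the intermediate clusters, 0.233% of the methylated clusters and 48.7% of the long unmethylated clusters. Because a match needs at least 4 CCGG in the window, larger clusters match more often. At equal size the shares were 35.4% in members and 29.99% in intermediate clusters of 10 to 19 sites, 17.1% in members and 12.6% in intermediate clusters of 7 to 9 sites, and 6.97% in members and 2.41% in intermediate clusters of 5 to 6 sites. Of the 31396 autosomal windows only 4294 held at least 4 CCGG and could match, and 3708 did (86.4%), against 20 when windows were matched to another chromosome. A cluster without a match is therefore not shown to lack a gene start. The members' 1215 windows belonged to 1119 genes (977 protein-coding and 142 long noncoding), and 118 clusters (11.8% of the 999, against 9.77% of the intermediate clusters with a matched promoter) held starts on both strands.

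In base composition the members' promoters were like those of other CCGG-rich windows. Median GC content was 69.7% in members, 69.0% in intermediate clusters and 73.7% in long unmethylated clusters, against 53.0% in all windows. The median window held 31 CpGs in members, 30 in intermediate clusters and 36 in long unmethylated clusters, against 7 in all windows. The observed over expected CpG ratio was 0.890 in members and 0.881 in intermediate clusters, against 0.389 in all windows. The composition is tied to the demand for 4 CCGG, since all windows that meet it had a median GC content of 69.7%.

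Motifs were counted on both strands of the 300-base windows (250 before to 50 after the start). GGGCGG was present in 81.6% of the members' windows, against 81.3% of all windows with at least 4 CCGG and 36.0% of all windows. TATAAA was present in 2.80% of the members' windows, against 2.77% of all windows with at least 4 CCGG and 13.6% of all windows. CCGGAAG was present in 29.0% of the members' windows and 29.4% of those of intermediate clusters, against 9.67% of those of long unmethylated clusters and 26.5% of all windows with at least 4 CCGG. This motif contains a CCGG, so the demand for CCGG favours it. CCAAT was present in 25.5% of the members' windows, CACGTG in 10.2% and TGACGTCA (the CRE palindrome) in 3.37%, against 27.6%, 9.85% and 2.98% of all windows with at least 4 CCGG, and 37.3%, 7.14% and 1.83% of all windows. A match of letters is not a bound site.

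The CCGG inside CCGGAAG scored close to the other CCGG of the same promoters. The 330 such sites averaged 78.7 ± 0.876 with lingonberries and 76.8 ± 1.20 in HFD, and the 4167 others averaged 79.3 ± 1.04 with lingonberries and 77.0 ± 1.48 in HFD. Within a liver the difference between both kinds of site lay between -1.41 and 0.368.

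Around the matched gene starts the scores were high near the start and lower with distance. At least 98.9% of the sites within 600 bp of the start belonged to the member clusters, whose mean m-score chose them, against 27.7% to 27.8% at 1200 to 1400 bp, so the shape is a description that follows the choice. From 200 bp before the start to the start itself (2833 sites) they averaged 79.4 ± 1.05 with lingonberries and 77.3 ± 1.47 in HFD, and over the first 200 bp of the gene (2352 sites) 79.4 ± 1.10 with lingonberries and 77.1 ± 1.42 in HFD. At 1200 to 1400 bp upstream they averaged 50.5 ± 1.71 with lingonberries and 51.3 ± 0.789 in HFD. At 1200 to 1400 bp downstream they averaged 48.9 ± 1.79 with lingonberries and 50.3 ± 0.926 in HFD. Lingonberry means were above HFD means in every bin within 800 bp of the start and below them in every bin from 800 to 1400 bp on either side. In each bin beyond 800 bp the difference was smaller than the SD of the lingonberry livers. No bin was tested. The median diet difference was 1.86 in the members with a matched promoter, which had a median of 12 sites, and 1.35 in the 3511 without, which had a median of 8.

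**Figure D5:**
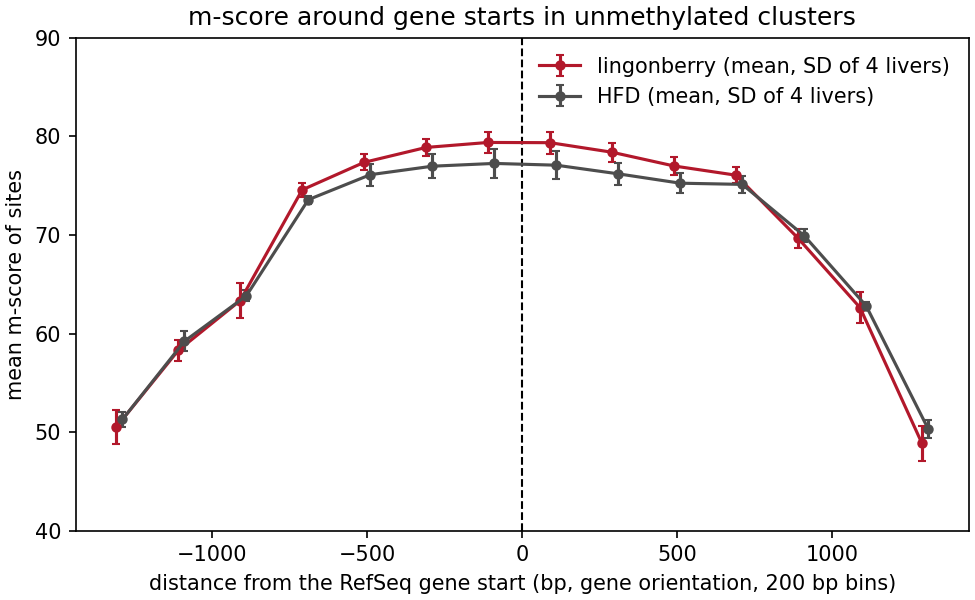
Mean m-score of sites in 200 bp bins by distance from the RefSeq gene start, for the clusters with a matched promoter, as mean and SD of 4 livers per diet. Both curves are near 80 around the start and near 50 at 1200 to 1400 bp, and they cross about 800 bp from the start. Beyond 800 bp they differ by less than the SD of the lingonberry livers, and no bin was tested.

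Members at genes of the 9 lists were few, and no gene's cluster differed between diets after adjustment (0 of all clusters called by limma). Of 26 liver transcription factors and nuclear receptors, 3 were matched and only Nr1h2, which encodes the oxysterol receptor LXR beta, lay in a member (chr7:51809009-51809465, 7 sites). Its m-score was 79.3, 79.2, 75.6 and 80.3 in the lingonberry livers and 75.1, 78.6, 69.6 and 74.8 in the HFD livers. The groups overlapped at HFD liver 2, and the limma difference was 4.11 ± 1.92 (SE; adjusted p = 0.609). The Nr1h2 cluster differed by 0.24 in log2 tags (limma unadjusted p = 0.0466, adjusted p = 0.387). Of 19 genes for proteins that liver secretes or is rich in, none was matched, so no member was tied to them.

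Of 17 genes of cholesterol synthesis and uptake, 4 were matched and 3 lay in members, with no unadjusted p below 0.05 on the m-score. Insig2, which encodes an endoplasmic reticulum protein that retains the sterol sensor SCAP, lay in a cluster of 13 sites (chr1:123223662-123225179). Its m-score was 76.99, 76.8, 74.3 and 79.8 in the lingonberry livers and 76.1, 79.1, 77.2 and 77.2 in the HFD livers, with full overlap and a limma difference of -0.45 ± 1.53 (SE; adjusted p = 0.946). Hsd17b7, which encodes a reductase of the later steps of cholesterol synthesis, shared a cluster of 6 sites with 3110045C21Rik on the opposite strand (chr1:171899207-171899443). The cluster differed by 2.15 ± 2.08 in m-score (SE; limma adjusted p = 0.781) and by 0.29 in log2 tags (limma unadjusted p = 0.04996, adjusted p = 0.39). Sc5d, a desaturase gene of the same pathway, lay in a cluster of 8 sites (chr9:42071950-42072656) that differed by -1.83 ± 1.66 (SE; limma adjusted p = 0.764).

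Of 28 insulin signalling genes, 9 were matched and 3 lay in members, with 3 of 3 limma differences in m-score above 0, against 79.6% of members and 65.9% of all clusters, and no unadjusted p below 0.05 on the m-score. Prkaa1 encodes the catalytic alpha 1 subunit of the energy sensor AMPK (chr15:5093508-5094285, 10 sites). Its m-score was 80.3, 75.9, 74.6 and 82.3 in the lingonberry livers and 80.3, 67.6, 77.9 and 78.7 in the HFD livers, so the groups overlapped, and the limma difference was 2.16 ± 2.64 (SE; adjusted p = 0.826). Rps6kb1, the gene of the S6 kinase downstream of mTORC1, and Tubd1, the gene of delta tubulin, shared a cluster of 15 sites (chr11:86357717-86358940). It differed by 1.68 ± 1.47 (SE; limma adjusted p = 0.759), and the cluster of Sos1, the gene of a Ras exchange factor, by 0.87 ± 2.03 (SE; limma adjusted p = 0.918).

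Of 20 germ-layer and patterning regulators, 6 were matched and 3 lay in members, although these genes act mainly in the embryo and in tissues other than liver. Olig2, a transcription factor gene of the oligodendrocyte lineage, lay in a cluster of 19 sites (chr16:91225623-91227949). Its m-score was 79.5, 78.3, 74.9 and 80.3 in the lingonberry livers and 74.03, 75.2, 69.3 and 78.5 in the HFD livers, with overlap, and the limma difference was 4.00 ± 2.00 (SE; adjusted p = 0.612). Pax6, the gene of an eye and brain regulator, averaged 84.2 ± 1.45 with lingonberries and 82.3 ± 2.64 in HFD over 8 sites (chr2:105508432-105509311), and was among the members above 80. The Pax6 cluster differed by 0.26 in log2 tags (limma unadjusted p = 0.0139, adjusted p = 0.351). The homeobox gene Msx1 had a cluster of 15 sites (chr5:38214052-38216046) that differed by 2.55 ± 1.95 (SE; limma adjusted p = 0.724).

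Of 61 ribosomal protein genes, 15 were matched and 8 lay in members. The limma difference in m-score was above 0 in 7 of the 8, against 79.6% of members and 65.9% of all clusters, and 2 were higher at an unadjusted p below 0.05, against 9.96% of members and 6.36% of all clusters. Those 2, named after their values were seen, were Rpl37 (80.1 ± 1.63 with lingonberries and 74.6 ± 3.21 in HFD, SD, n = 4 each) and Rpl35 (79.6 ± 2.54 with lingonberries and 75.8 ± 1.73 in HFD), with a limma adjusted p of 0.602 each. The cluster of Rps7 (16 sites, chr12:29320218-29321011) had 78.3, 76.9, 74.8 and 76.99 in the lingonberry livers and 74.3, 74.2, 73.5 and 75.8 in the HFD livers. The groups overlapped, since lingonberry liver 3 lay below HFD liver 4, and the limma difference was 2.32 ± 1.43 (SE; adjusted p = 0.664). Rpl10a differed by -0.60 ± 1.75 (SE; limma adjusted p = 0.937) and Rps6 by 0.24 ± 1.58 (SE; limma adjusted p = 0.978).

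Of 17 circadian clock genes, 4 were matched and 2 lay in members. Bhlhe41, which encodes a transcriptional repressor of the clock, had 19 sites (chr6:145812942-145815345) and differed by 1.02 ± 1.47 (SE; limma adjusted p = 0.858). Csnk1e, which encodes a casein kinase that acts on the period proteins, had 13 sites (chr15:79272003-79272628) and differed by 0.75 ± 1.83 (SE; limma adjusted p = 0.922). The 3 matched antioxidant genes and the 2 matched housekeeping genes all lay in intermediate clusters.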

How the data were processed

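Liver DNA of 8 mice was measured by HELP-tagging, with 4 livers per diet, grouped by the diet in the labels. Per the file headers, each deposited file gives for each HpaII site an m-score, a score from 0 to 100, and a signal named conf. The submitters' processing notes name CASAVA and mm9; which tool aligned the tags and where the MspI values came from is not given in the sources used here. From the values, the score is an angle and the deposited signal the length of the vector of HpaII and scaled MspI tags. HpaII tags were recovered as its sine component and were whole within 0.02 at 96.1% to 97.0% of sites above 0. Tags carry no molecular identifiers, so intervals cover counting error only.

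Diets were compared by two-sided exact permutation tests over 70 assignments. The series' design gives 4 mice per group, with no animal named per sample, so a p-value rests on the spread between these libraries. Where several classes were tested together, p-values were adjusted by the Benjamini-Hochberg method. Of the 13 values tested per sample, each was compared on its own apart from those classes. Clusters were fitted with limma 3.58.1 (R 4.3.3) with a mean trend, on the mean m-score and on log2(tags per 1000000 + 0.5), so tag fold changes are on that scale, adjusted over all 21020 clusters of 5 or more sites including X and Y. Scripts ran in Python 3.11.15 and were tested on simulated data.

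RefSeq promoter windows (GRCm38.p6) were matched on the same chromosome where at least 4 CCGG and at least 50% of the window's CCGG fell on listed sites at equal spacing, with a single best place and no other listed site inside. Matching to another chromosome served as a control. Coordinates of clusters are those of the files. Sequence of chromosome 18 is not shown.

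Members named are the 5 with the smallest p in each direction, the extremes in score, size, length, tags and range, up to 4 per gene list (those with the most sites), and 3 clusters on either side of the threshold; Rpl35 and Rpl37 were added outside this rule after their values were seen. The members and gene lists were chosen with earlier results of these data known. Alternatives were MspI minimums of 5 and 20 tags, a gap of 300 bp, a threshold of 85, no sites with fractional tags, other totals, thinning, a pseudocount of 2, limma without the trend, limma on clusters with a mean of at least 10 HpaII tags per site, and leaving out each liver.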

Additional observations from a re-analysis of the deposited data

Results flagged for a closer look

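Lingonberry liver 3 stood apart from the other 3 lingonberry livers in member sites without any HpaII tag, with 0.130% against 0.0116% to 0.0302%. The HFD livers had 0.0582% to 0.144%. Lingonberry liver 3 was also the shallowest lingonberry library, and the part of depth in this value was not tested. In all, 26 groups of values were examined for such a sample, and chance sets a sample apart in about 1 of 20 groups.

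The step between outermost and inner sites of the clusters differed between diets by -2.04 (-4.16 ± 0.831 with lingonberries and -2.12 ± 1.10 in HFD, SD, n = 4 each, exact permutation p = 0.0286). The diet difference of sites with a neighbour within 30 bp exceeded that of sites with none within 250 bp by 4.63 (contrasts of 9.41 ± 1.95 with lingonberries and 4.77 ± 2.71 in HFD, SD, n = 4 each, exact permutation p = 0.0286).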

How the results depend on the processing

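The mean m-score stayed higher with lingonberries, and short of the threshold, under all alternatives run, from 0.769 (threshold of 85) to 1.92 (without lingonberry liver 3). The share of HpaII tags differed by 1.16 to 1.80 points with 1 liver left out (exact permutation p = 0.0286 to 0.0571) and by 1.54 without the 1000 sites with most tags (exact permutation p = 0.0571). The share of sites at 75 or above differed by 3.89 to 6.45 points, and that from 25 to 75 by -6.25 to -3.82, with 1 liver left out. The contrast with intermediate clusters turned to -0.0796 at an MspI minimum of 20 tags, -0.173 at a gap of 300 bp and -0.511 at a threshold of 85; the cause was not tested. It was 0.0799 to 0.437 with 1 liver left out. The contrast with long clusters was -1.18 at a threshold of 85. The step of the outermost sites was -2.39 to -1.58 with 1 liver left out and -1.28 at a threshold of 85 (exact permutation p = 0.171), which left 40 clusters and no member of 10 to 19 sites, so that size class has no value there. The contrast by nearest site was 3.57 to 5.41 with 1 liver left out, 4.49 at an MspI minimum of 5 tags (exact permutation p = 0.0571) and 3.48 at a threshold of 85 (exact permutation p = 0.229). No alternative called a member by limma at an adjusted p below 0.05. At an unadjusted p below 0.05, limma without the trend gave 272 of the 4510 members higher in m-score, and 1153 of all 21020 clusters. With the trend these counts were 449 and 1337. The members' share higher thus stood nearer to that of all clusters when the trend was left out. Limma without the trend gave 8 members and 457 of all clusters lower. With 1 liver left out, 259 to 546 members and 849 to 1616 of all clusters were higher. The count was 259 members without lingonberry liver 4 and 279 without HFD liver 3. Lower with 1 liver left out were 10 to 34 members and 333 to 475 of all clusters. A threshold of 85 gave 2 of 40 members higher and 0 lower, beside 1337 and 391 of all clusters. At an MspI minimum of 20 tags, 10 of 4057 members and 150 of 13711 clusters were lower. On tags with 1 liver left out, 412 (without HFD liver 3) to 941 members and 1337 to 2822 of all clusters were higher. Lower were 0 to 7 members and 261 to 354 of all clusters. At a threshold of 85, 6 of 40 members were higher and 0 lower, beside 2378 and 314 of all clusters. Lower members on tags numbered 1 at an MspI minimum of 20 tags and 5 at one of 5, beside 122 and 448 of all clusters. The total over cluster sites gave 69 members higher and 72 lower, beside 293 and 756 of all clusters. A gap of 300 bp gave 5471 members. Depth limits the shallowest liver to a median of 19 HpaII tags per member site. No paired analysis was possible because the labels do not pair the livers and replicate numbers are in accession order.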

Other observations

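The clusters were spread over all 19 autosomes, from 128 on chromosome 18 to 370 on chromosome 2. They made up 32.3% of the clusters of 5 to 19 sites on chromosome 3 and 16.8% on chromosome 17. Per 1000 sites with at least 10 MspI tags there were 5.81 on chromosome 19 and 4.20 on chromosome 17. Lingonberry minus HFD in mean m-score was above 0 on every autosome, between 1.25 on chromosome 17 and 1.76 on chromosome 11, as a description with no test. Recovered tags were fractional at 1126 member sites (2.62%), and 288 of the 1000 sites with most tags lay in the clusters.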
